A study of Mus musculus with 6 samples.

Results

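Aminoacyl-tRNA synthetases were followed in RNA from submandibular glands (SMGs) of female mice, by taking every row of the authors' filtered count table whose gene symbol names such an enzyme. There were 38 of these genes among 17527 rows. Symbols ending in 2, other than Tarsl2, were taken as the mitochondrial enzymes (17 genes), Gars and Kars as enzymes that serve both compartments (2 genes), and the rest as cytosolic (19 genes). The cytosolic and dual genes are described together below, as 21 genes.

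The series held 3 libraries labelled WT, from wildtype glands, and 3 labelled DKO, from glands in which both Hs3st3a1 and Hs3st3b1 were targeted. Both genes encode enzymes that place a 3-O-sulfate on heparan sulfate. Per the study's methods, the DKO mice carry a small frameshift deletion made by zinc finger nucleases in exon 1 of Hs3st3a1 and a LacZ cassette at Hs3st3b1. These alleles are present in all tissues rather than in one cell type, and the lines were derived from several founders on a C57BL/6 background. Which founder gave which library, the exact age of the adult mice and whether each library came from a separate mouse are not given in the labels, so the p-values measure only the spread between these libraries. The comparison asks which transcripts differ between glands labelled as lacking both enzymes and wildtype glands.

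An aminoacyl-tRNA synthetase joins 1 amino acid to its matching tRNA and so supplies the ribosome with charged tRNA. The cytosol and the mitochondrion have separate sets of these enzymes, nearly all encoded by separate nuclear genes, and several cytosolic enzymes are held in a large multi-synthetase complex by scaffold proteins. Acinar cells of salivary glands make large amounts of secreted protein. When amino acids or protein folding are limiting, cells raise the transcription factor ATF4, and cytosolic synthetase genes are among its known targets.

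Total counts were between 23674258 and 29611975 per library, and the single row Spt1 took 34.9% to 39.7% of them. The targeted genes did not separate the groups. Hs3st3a1 was counted 15, 11 and 15 times in WT 1, 4 and 5 (numbered as in the labels) against 11, 8 and 13 times in DKO 1, 4 and 5. Hs3st3b1 was counted 173, 203 and 261 times against 255, 120 and 189. Neither gene passed the test (DESeq2 adjusted p = 0.947 and 0.976). A count per gene does not show where reads lie relative to the deletion in Hs3st3a1 or the cassette in Hs3st3b1, so these counts give the labels no backing, and DKO is used below only as the label of a library. Acinar markers (Aqp5, Bhlha15, Lpo, Cldn10 and Slc12a2) and granular duct markers (Egf and 4 kallikreins among them), which define this gland, were abundant in all 6 libraries.

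ATF4 pairs with C/EBP proteins on an element with the core TGATGNAA, which reads TTNCATCA on the other strand. That core was searched on both strands in the RefSeq promoter windows of GRCm38.p6, which run from 250 bases before to 50 bases from the start of transcription, and 28 of the 38 members had such a window. It was found in 4 of the 7 windowed genes that passed the test below (57.1%), in 1 of 7 windowed cytosolic or dual genes that did not pass (Iars) and in 0 of 14 windowed mitochondrial genes. Sars, Mars and Eprs passed the test and had a window without the core. Any relation between the core and the transcript levels was not tested. Of all 32851 windows in the table, 1304 (3.97%) held it, and of 27025 genes 1219 (4.51%). The members without a window included Lars, Cars, Rars, Pars2, Vars, Hars2, Wars, Nars and Hars. The match nearest to the start of transcription is printed for each of the 5 genes, because this core is the only sequence feature searched for across the 38 genes, each as 30 bases read 5′ to 3′ along the gene with the matched core in capitals.
Aars, chr8:111033840-111033869, plus strand: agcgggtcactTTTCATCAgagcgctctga
Gars, chr6:55037960-55037989, plus strand: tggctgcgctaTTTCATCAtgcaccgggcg
Iars, chr13:49682126-49682155, plus strand: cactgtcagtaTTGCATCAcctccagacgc
Tars, chr15:11399655-11399684, minus strand: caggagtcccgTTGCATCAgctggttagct
Yars, chr4:129189895-129189924, plus strand: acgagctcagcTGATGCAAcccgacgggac
Counting the start of transcription as base 1, the first base of the match lay at 10 in Aars, at -30 in Gars, at 8 in Iars, at -15 in Tars and at 4 in Yars. Of these 5 matches, 4 read as TTNCATCA along the gene and that in Yars as TGATGNAA. A match is a description of the letters in these windows. Binding was not measured.

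Synthetase transcripts that passed the test were all cytosolic or dual, and all were higher in the libraries labelled DKO. Of the 21 cytosolic and dual genes, 11 rose and 0 fell (DESeq2 Wald test, two-sided, Benjamini-Hochberg adjusted p below 0.05 over 18606 rows), namely Rars, Gars, Sars, Mars, Aars, Nars, Cars, Yars, Tars, Vars and Eprs. Their log2 fold changes ran from 0.42 for Eprs to 0.85 for Rars. In the same test 1.02% of all rows rose and 2.9% were called in either direction. Among the 11741 rows with a mean at or above that of the lowest member (Pars2, 44.3 normalized counts), 1.56% rose. All 38 members had enough counts to be tested. The median log2 fold change was 0.47 over the 21 cytosolic and dual genes and 0.08 over the 17 mitochondrial genes, beside 0.0011 over all rows tested. Of the 21, 20 had a positive log2 fold change, the exception being Wars, against 14 of the 17 mitochondrial genes.

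**Figure D1:**
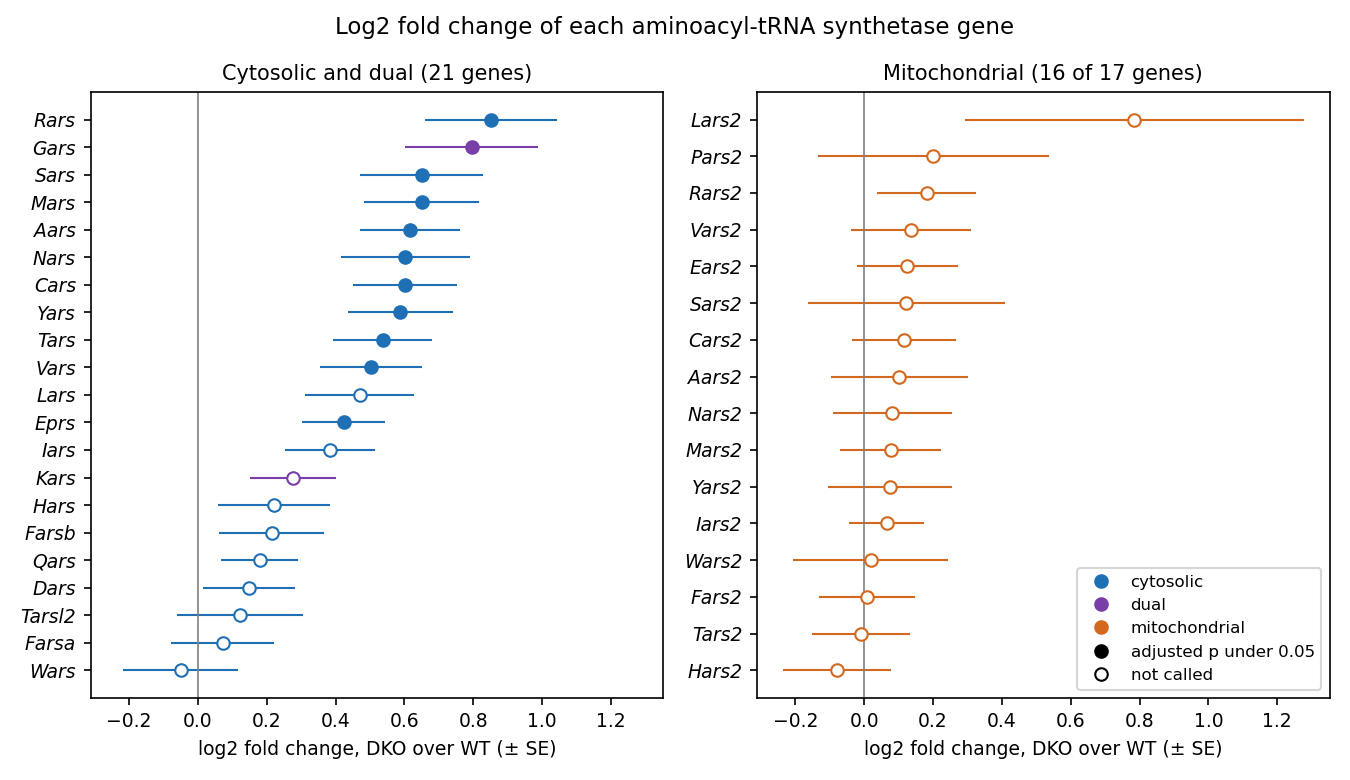
Log2 fold change of each synthetase gene, DKO over WT libraries, with bars for 1 SE (DESeq2, 3 against 3 libraries). Filled points have an adjusted p below 0.05. All 11 filled points are cytosolic or dual and lie between 0.42 and 0.85, and the 16 mitochondrial points shown lie between -0.08 and 0.20 apart from Lars2 at 0.79.

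These calls were made by DESeq2 alone. By edgeR's quasi-likelihood test and by limma-voom, 0 of the 21 genes passed, although 14 had an unadjusted p below 0.05 in each. The background was also lower there, since edgeR called 0.0269% and limma-voom 0.0161% of all rows higher, and 6.32% and 6.09% of rows were higher at an unadjusted p below 0.05. In DESeq2 14 of the 21 had an unadjusted p below 0.05, the 11 called genes with Iars, Lars and Kars, beside 4.92% of all rows. The edgeR adjusted p of the 11 genes lay between 0.147 (Cars) and 0.236 (Nars). Scaling DESeq2 to total counts, which moved the median log2 fold change of all rows to -0.233, left 4 of the 21 called and 14 with a positive log2 fold change. With that scaling 1469 of all 18606 rows were called in either direction, against 539 in the fit above.

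Arginyl-tRNA synthetase, Rars, had the largest log2 fold change. WT 1, 4 and 5 gave normalized counts of 665, 759 and 715, whereas DKO 1, 4 and 5 gave 870.0, 1655 and 1336, with group means of 713 ± 47.1 and 1287 ± 395 (SD, n = 3 each; log2 fold change 0.85, SE 0.19, adjusted p = 0.0013 by DESeq2). All 3 DKO libraries lay above all 3 WT libraries, with DKO 1 nearest to WT. Glycyl-tRNA synthetase, Gars, whose one gene makes both the cytosolic and the mitochondrial enzyme, had 1011, 1239 and 1109.7 against 1385, 2664 and 1785 (log2 fold change 0.80, SE 0.19, adjusted p = 0.0041 by DESeq2), again without overlap. The other dual gene, Kars, for lysine, had 1073, 1039.8 and 1038 against 1117, 1487 and 1213. Its groups did not overlap either, but it did not pass the test (log2 fold change 0.28, SE 0.13, adjusted p = 0.267 by DESeq2).

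Of the 8 enzymes of the multi-synthetase complex (Eprs, Iars, Lars, Mars, Qars, Rars, Kars and Dars), 3 rose, Rars, Mars and Eprs, and the median log2 fold change was 0.40. Methionyl-tRNA synthetase, Mars, which also charges the initiator tRNA, had 979.7, 1367 and 1236 in WT 1, 4 and 5 and 1467, 2248 and 1907 in DKO 1, 4 and 5 (log2 fold change 0.65, SE 0.17, adjusted p = 0.0072 by DESeq2). The last 68 exonic bases of Mars are shared with Ddit3 on the opposite strand, and unstranded reads from them cannot be assigned to one gene. Eprs, a single protein that charges both glutamate and proline tRNAs, had normalized counts of 2606, 2702 and 2644 against 3102, 4192 and 3376 (log2 fold change 0.42, SE 0.12, adjusted p = 0.0212 by DESeq2). Its WT libraries were close together and DKO 4 stood above the other DKO libraries. Iars (isoleucine) had a log2 fold change of 0.38 and Lars (leucine) of 0.47, with adjusted p = 0.0758 and 0.0723 (DESeq2). Qars (glutamine) and Dars (aspartate) were at 0.18 and 0.15, with overlapping groups.

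The 13 cytosolic and dual enzymes outside the complex held 8 of the 11 called genes, with a median log2 fold change of 0.54. Seryl-tRNA synthetase, Sars, had normalized counts of 1286, 1476 and 1380.2 across WT 1, 4 and 5, against 1599, 2893 and 2012 across DKO 1, 4 and 5 (log2 fold change 0.65, SE 0.18, adjusted p = 0.0155 by DESeq2). Alanyl-tRNA synthetase, Aars, which carries a core match printed above, had 1580.4, 1870.3 and 1779.7 against 2205, 3283 and 2529.6 (log2 fold change 0.62, SE 0.15, adjusted p = 0.00276 by DESeq2). In both genes every DKO library lay above every WT library. Asparaginyl-tRNA synthetase, Nars, had 1822, 2262 and 1938 against 2232, 4170.4 and 2742 (log2 fold change 0.60, SE 0.19, adjusted p = 0.0435 by DESeq2). It was the only called gene whose groups overlapped, since DKO 1 lay below WT 4. Its call was also lost when DESeq2's independent filter was turned off.

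Cysteinyl-tRNA synthetase, Cars, had 523, 749 and 670.0 against 867, 1020.1 and 1061 (log2 fold change 0.60, SE 0.15, adjusted p = 0.00569 by DESeq2) and was the only called gene highest in DKO 5. Tyrosyl-tRNA synthetase, Yars, had 517, 638 and 573 against 750.5, 1042 and 805 (log2 fold change 0.59, SE 0.15, adjusted p = 0.00803 by DESeq2). Valyl-tRNA synthetase, Vars, had 897, 829 and 756 against 1153, 1403 and 958 (log2 fold change 0.50, SE 0.15, adjusted p = 0.0285 by DESeq2). None of these genes overlapped between groups. Of the 5 free enzymes that did not pass, Hars (histidine), Farsb and Farsa (the 2 subunits of the phenylalanine enzyme), Tarsl2 and Wars, log2 fold changes ran from -0.05 to 0.22.

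By catalytic fold, 5 of 9 class I genes rose (median log2 fold change 0.50) and 5 of 11 class II genes (median 0.28), with Eprs, which holds 1 domain of each class, counted apart. The difference between complex and free enzymes, and that between classes, was not tested.

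The threonine enzymes show the range within 1 amino acid. Tars, the main cytosolic enzyme, had normalized counts of 991, 1082 and 948 across WT 1, 4 and 5, against 1279.9, 1796 and 1304 across DKO 1, 4 and 5, with no overlap (log2 fold change 0.54, SE 0.14, adjusted p = 0.0129 by DESeq2). Tarsl2, a second cytosolic threonyl-tRNA synthetase, had 156, 169 and 163 against 156, 185 and 193 (log2 fold change 0.12, SE 0.18, adjusted p = 0.88 by DESeq2). Mitochondrial Tars2 had 401, 355 and 359 against 337, 408 and 364 (log2 fold change -0.01, SE 0.14, adjusted p = 0.993 by DESeq2). Only Tars had groups that did not overlap.

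Wars, the tryptophanyl-tRNA synthetase, had the lowest log2 fold change of the cytosolic and dual genes (-0.05, SE 0.17, adjusted p = 0.952 by DESeq2). Its normalized counts were 505, 400.1 and 421 in WT 1, 4 and 5 against 382, 521 and 377 in DKO 1, 4 and 5. The groups overlapped, and the highest values were in DKO 4 and WT 1. Wars is known to be induced by interferon-gamma. The 12 interferon-inducible genes of a list chosen for this comparison had summed normalized counts of 10848, 2422 and 4419 in WT 1, 4 and 5 and 1987, 1922 and 1672 in DKO 1, 4 and 5. Of them 6 fell and 0 rose by DESeq2, beside 2.9% of all rows called in either direction, with a median log2 fold change of -2.27. By edgeR and limma-voom 0 of them were called (12 and 10 at an unadjusted p below 0.05). The part of that difference in the Wars value was not tested.

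The highest library was the same in nearly every cytosolic gene. Among the 21 cytosolic and dual genes the highest value was in DKO 4 for 19 and in DKO 5 for 2. No share over all rows was taken for this, and it was not particular to these genes. In lists described below, DKO 4 was highest for 5 of 5 genes of elongation factor 1 and 3 of 3 scaffold genes. It was also highest for 6 of 7 genes for editing and tRNA handling and 4 of 5 acinar markers. It was highest for 7 of the 17 mitochondrial genes and 1 of 3 genes of the selenocysteine route. Relative to the mean of the WT libraries on the log2 scale, the median of the 21 genes was 0.21 in DKO 1, 0.67 in DKO 4 and 0.35 in DKO 5, and between -0.06 and 0.09 in the WT libraries. Every library labelled DKO lay above every library labelled WT in 12 of the 21 genes, which were 10 of the 11 called genes with Iars and Kars, and in 2 of the 17 mitochondrial genes, beside 9.85% of all rows tested. Summed over the 21 genes, normalized counts were 21491, 24362 and 22488 in WT 1, 4 and 5 and 26212, 39107 and 30170.5 in DKO 1, 4 and 5.

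**Figure D2:**
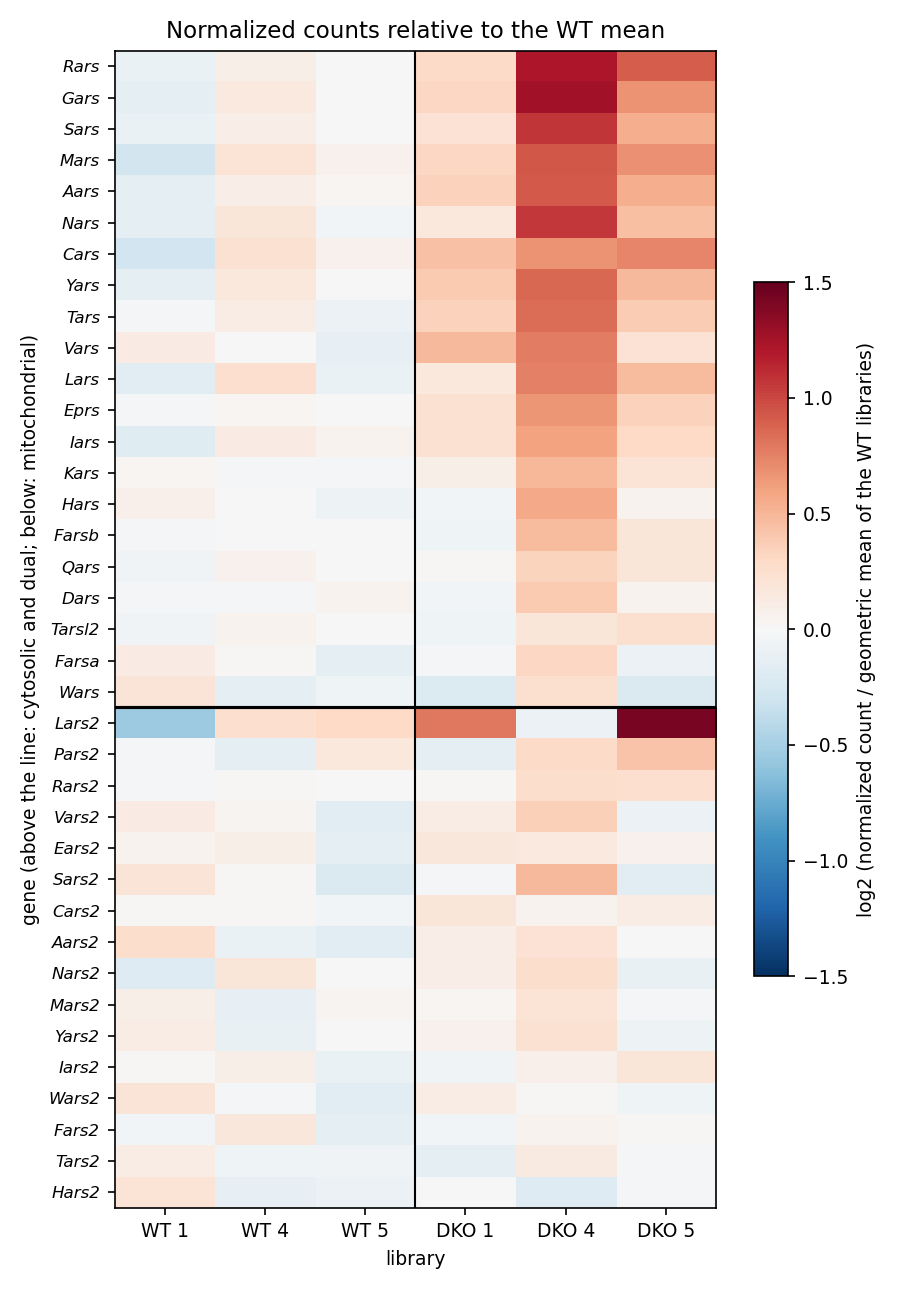
Log2 of each gene's normalized count over the geometric mean of the 3 WT libraries, by library, with cytosolic and dual genes above the horizontal line, mitochondrial genes below it and each set ordered by log2 fold change. Red marks values above the WT mean and blue values below it. DKO 4 is the highest library in 19 of the 21 upper rows, and the median of the 17 mitochondrial genes, 16 of them shown, lies between -0.06 and 0.14 in every library.

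Leaving out 1 library at a time kept a positive log2 fold change in all 11 called genes, but changed how many passed. Without WT 1, 0 of the 21 passed (12 at an unadjusted p below 0.05), beside 0.308% of all rows higher. Without WT 5 the only gene that passed was Rars, beside 0.325% of rows. Without DKO 4 it was Aars, Tars and Eprs, 3 genes, beside 0.372%, and the median log2 fold change of the 21 genes was 0.31. Without DKO 5, 5 passed beside 0.355%. Without WT 4, 10 passed beside 1.33%, which were 9 of the 11 called genes with Lars. Without DKO 1, 12 passed beside 1.68%, which were 10 of the 11 with Iars and Lars. WT 1 was the lowest library in 9 of the 11 called genes, and it was also the library highest in interferon-inducible transcripts.

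**Figure D3:**
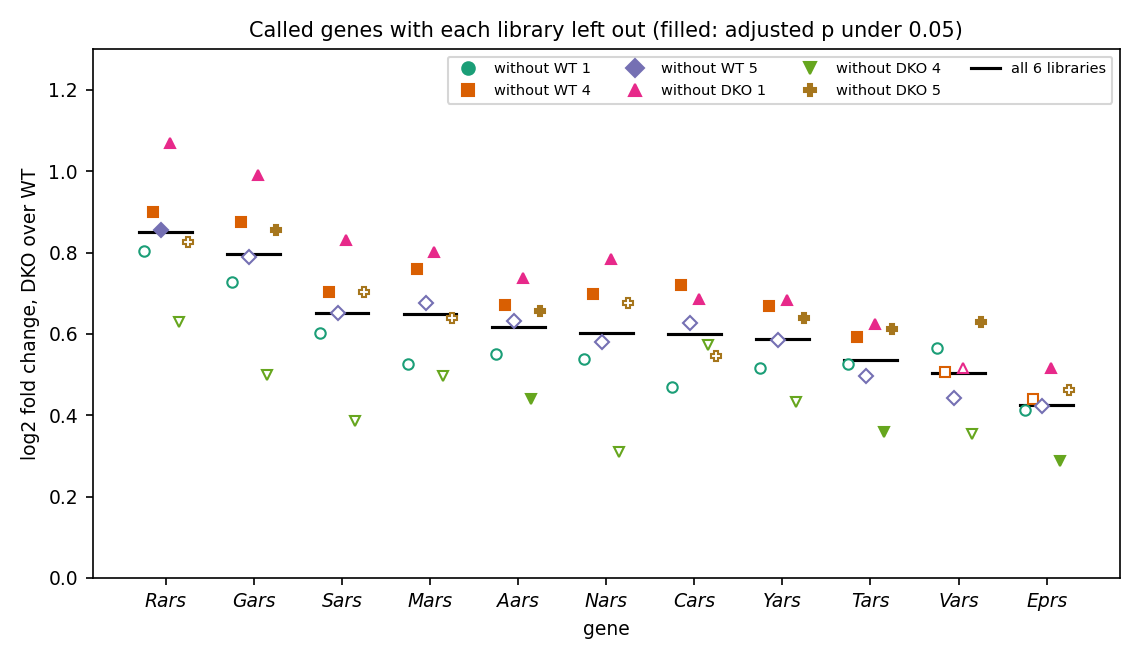
Log2 fold change (DKO over WT) of the 11 called genes with all 6 libraries (black lines) and with each library left out in turn (symbols, filled where the DESeq2 adjusted p stayed below 0.05). All points are above 0. Those without DKO 4 are the lowest for 10 of the 11 genes, and none is filled without WT 1.

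Of the 17 mitochondrial genes, 0 were called and 0 had an unadjusted p below 0.05 by DESeq2, edgeR or limma-voom. Apart from Lars2, log2 fold changes ran from -0.08 to 0.20, the latter for Pars2, the proline enzyme. Hars2, the histidine enzyme, was at -0.08, with 364, 289.5 and 296 against 313, 275 and 311 normalized counts, and Pars2 had 40.6, 37.2 and 45.7 against 37.0, 50.2 and 55.3. Both overlapped between groups. The SE of the log2 fold change was 0.11 for Iars2 and 0.33 for Pars2, against called values from 0.42 (Eprs) to 0.85 (Rars). With an SE of 0.33, a change as small as that of Eprs could not be resolved in Pars2.

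Lars2, the mitochondrial leucyl-tRNA synthetase, had the widest spread of all members. Its normalized counts were 438, 761 and 791 in WT 1, 4 and 5 and 1108, 604 and 1718 in DKO 1, 4 and 5 (log2 fold change 0.79, SE 0.49, adjusted p = 0.535 by DESeq2). DKO 4, the highest library for the cytosolic genes, was the lowest DKO library here and lay within the WT range. The summed normalized counts of the other 16 mitochondrial genes were 5035, 4944 and 4598 in the WT libraries and 4859.6, 5272 and 5072 in the DKO libraries, which overlapped.

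Among the cytosolic genes, 15 were each paired with 1 mitochondrial gene for the same amino acid. This allowed the ratio of the 2 transcripts to be taken within each library, free of the scaling between libraries. Eprs, a called gene whose amino acids are served by Ears2 and Pars2 in the mitochondrion, was not paired. Fars2 and Tars2 were paired with Farsa and Tars only, which left out Farsb and Tarsl2. The log2 fold change was larger for the cytosolic than for the mitochondrial gene in 13 of the 15 pairs, the exceptions being Lars with Lars2 and Wars with Wars2. The ratio was higher in every DKO than in every WT library in 8 pairs, those of Aars, Cars, Nars, Rars, Sars, Tars, Vars and Yars, and lower in 0. For Rars over Rars2 it was 2.26, 2.53 and 2.42 in WT 1, 4 and 5 and 2.89, 4.66 and 3.78 in DKO 1, 4 and 5. For Vars over Vars2 it was 3.38, 3.30 and 3.46 against 4.37, 4.47 and 4.18, the pair with the least spread within groups. For Mars over Mars2 it overlapped, at 2.85, 4.60 and 3.70 against 4.42, 5.99 and 5.95. With 3 libraries against 3 an exact two-sided permutation test cannot give a p below 0.1, so no single pair was tested. No share over all rows was taken for such ratios, and the count of 8 is a description of these pairs.

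**Figure D4:**
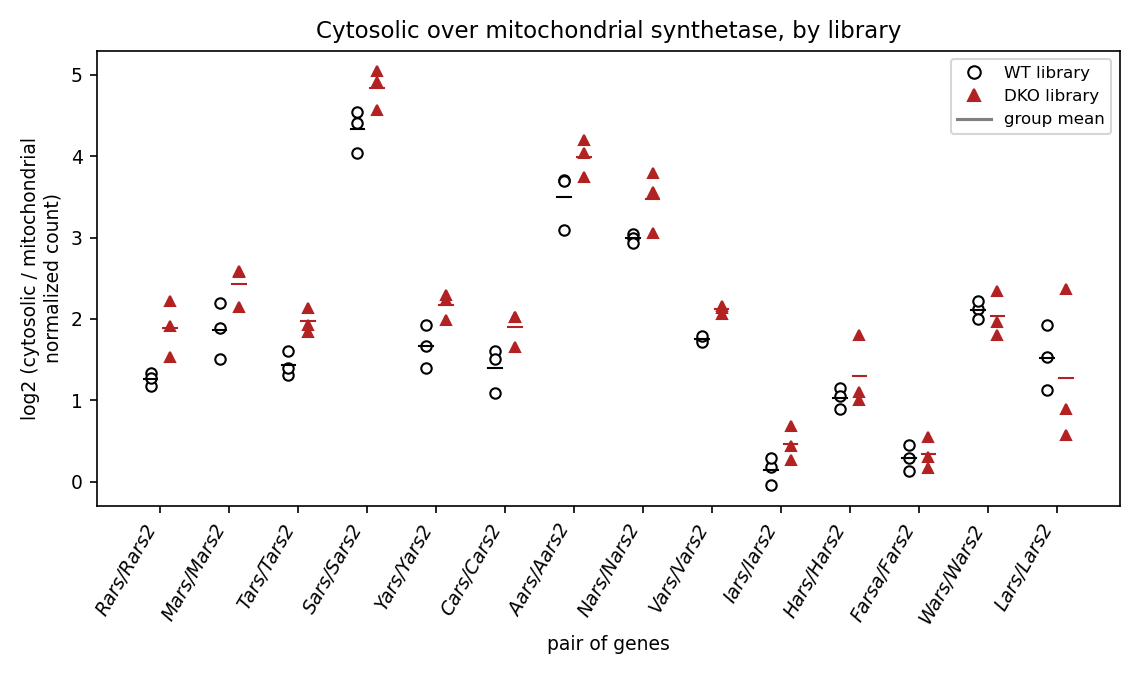
Log2 ratio of the cytosolic over the mitochondrial gene's normalized count for 14 of the 15 pairs, with open circles for WT libraries, triangles for DKO libraries and lines for group means. Triangles lie wholly above circles in 8 pairs, and the Lars pair has the widest spread.

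Levels were compared between genes only per length. The mean over the 6 libraries, in normalized counts per kilobase of exon (GENCODE M21), had a median of 384 over the cytosolic and dual genes, from 53.3 for Tarsl2 to 864 for Nars, and of 62.7 over the mitochondrial genes, from 14.5 for Pars2 to 232 for Lars2. The ranges overlapped, and Tarsl2 was the only cytosolic gene below the mitochondrial median.

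Genes that act beside the synthetases were followed by lists. The 3 scaffold and associated proteins of the multi-synthetase complex (Aimp1, Aimp2 and Eef1e1) had 0 genes called and a median log2 fold change of 0.08. Of 7 genes for editing and tRNA handling 1 rose, Xpot, the exportin that carries tRNA out of the nucleus. It had 1825, 1973 and 1787 in the WT and 2152, 2854 and 2384 in the DKO libraries (log2 fold change 0.40, SE 0.12, adjusted p = 0.0319 by DESeq2). Xpot was not called by edgeR or limma-voom. In the mitochondrial aminoacyl-tRNA pathway, which holds the amidotransferase subunits Gatb, Gatc and Qrsl1 that make glutaminyl-tRNA, the formyltransferase Mtfmt and the elongation factor Tufm, 0 of 5 were called. None of the 3 genes of the selenocysteine route or the 5 of elongation factor 1, which delivers charged tRNA to the ribosome, was called either. Across these 4 lists without a call, 0 genes had an unadjusted p below 0.05 by DESeq2, and edgeR and limma-voom called 0.

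Of 9 genes of the amino acid response, 4 rose and 0 fell by DESeq2, beside 1.02% of all rows that rose, with a median log2 fold change of 1.21. By edgeR and by limma-voom 0 of the 9 were called, with 7 at an unadjusted p below 0.05 in each. They were Sesn2 (1.21, adjusted p = 0.00044), Trib3 (1.77, adjusted p = 0.00589), Psat1 (2.37, adjusted p = 0.0228) and Chac1 (3.06, adjusted p = 0.039, all DESeq2), each a known target of ATF4. Atf4 itself had 1728, 1961 and 2007 against 1811, 2609 and 2749 and did not pass (log2 fold change 0.33, adjusted p = 0.267 by DESeq2). Asparagine synthetase, Asns, had 3514, 5087 and 4100.3 against 6200.2, 12461 and 7078 (log2 fold change 1.02, adjusted p = 0.0976 by DESeq2). Summed over the 9 genes, normalized counts were 6589.6, 8648 and 7672 in WT 1, 4 and 5 and 10019.9, 19958.5 and 13577 in DKO 1, 4 and 5. The 6 libraries fell in the same order for this sum as for the sum of the 21 cytosolic and dual synthetases, both of which share the same size factors. The full match depends on Asns. The other 8 genes summed to 3076, 3562 and 3572 in WT 1, 4 and 5, which puts WT 5 just above WT 4. In the DKO libraries they summed to 3820 (DKO 1), 7497 (DKO 4) and 6499 (DKO 5), and the rest of the order was kept. Both lists were chosen with results of these libraries known, so their direction is not independent evidence.

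Markers of cell types also differed between the groups, and in a whole gland fewer cells of a type and less RNA per cell cannot be told apart. The calls here are those of DESeq2. Of the 35 markers tested 22 passed it, beside 2.9% of all rows called in either direction. By edgeR and limma-voom 0 of the 35 were called (31 and 29 at an unadjusted p below 0.05). The 6 granular duct markers all fell, with sums from 228394 to 246041 in WT and from 118018 to 164005 in DKO libraries, as did the 5 myoepithelial markers (8300.0 to 9047 against 4517 to 5861). Krt14, among the myoepithelial markers, is also expressed in basal ducts per the paper. Of the 5 acinar markers 1 rose, Aqp5. At an unadjusted p below 0.05, 3 were higher (Aqp5, Lpo and Cldn10), beside 4.92% of all rows. For 3 (Aqp5, Lpo and Bhlha15) every DKO library lay above every WT library, beside 9.85% of all rows. The sums of all 5 were 74267 to 83868 in WT and 80654 to 100186 in DKO libraries. They were highest in DKO 4, which was also highest in the synthetases. Slc12a2, the most counted of them, was the only acinar marker with a negative log2 fold change. The sums of all 5 acinar markers overlapped between groups. Without Slc12a2, a choice made after its values were seen, the sums were 26638 to 32460.3 in WT and 33383 to 50826 in DKO libraries. They did not overlap, but that separation rests on the choice. Lpo was the largest part of them, at 13535 to 17386 in WT and 17666 to 31069 in DKO libraries. The ranges that follow are sums over all markers tested in a list, in WT against DKO libraries. Of 3 T cell markers 2 fell (20.5 to 105 against 1.15 to 6.27), with Cd8a at 0 in all DKO libraries. Of 3 B and plasma cell markers 1 fell, Ighm (sums of the 3, 199 to 2199 against 72.1 to 79.7). Of 3 macrophage markers 1 fell, C1qa (sums of the 3, 906 to 1393 against 707 to 935). Of 3 fibroblast markers 2 fell (6130.3 to 7893 against 4495.5 to 6299). No endothelial marker was called (sums of the 3, 1092 to 1325 against 1307 to 1651). Of the 3, 2 were higher at an unadjusted p below 0.05, beside 4.92% of all rows. The 4 erythroid markers rose (799.8 to 1657 against 2680.0 to 3018). The part of these differences in the synthetase values was not tested.

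In GRCm38 (GENCODE M21), the called genes other than Nars lie at chr11:35808381-35834506 (Rars), chr6:55038007-55079500 (Gars), chr3:108424865-108445209 (Sars), chr10:127296221-127311786 (Mars), chr8:111033144-111057664 (Aars), chr7:143557230-143600090 (Cars), chr4:129189760-129219607 (Yars), chr15:11382301-11399665 (Tars), chr17:35000987-35016322 (Vars) and chr1:185363044-185428360 (Eprs), matched by symbol, and the counts cover the annotated gene as a whole. They are spread over 10 places on 10 chromosomes, with no cluster. Unstranded reads cannot be split where genes overlap, and the largest such overlap among the members was that of Iars2 with Rab3gap2 on the opposite strand (2034 shared exonic bases, 30.5% of Iars2). Among the called genes, Aars shares 1326 exonic bases with Exosc6 on the same strand (23.1% of Aars). No row of the unfiltered counts bore the symbol Exosc6, so where its reads were counted is not known. Yars shares 30 exonic bases with C77080 on the opposite strand. Hars and Hars2 share 195 bases head to head, and neither was called.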

How the data were processed

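RNA of female SMGs had been made into Nextera XT libraries, which do not mark strand, for 3 libraries labelled WT and 3 labelled DKO. The submitters' processing notes name STAR 2.5.2a, DESeq2, edgeR and limma and the builds GRCh38, GRCm38 and mm10. The counting tool and annotation are not given in the sources used here. Raw counts for each gene symbol were deposited, unfiltered (43280 rows) and filtered (17527 rows). Their CPM table was not used. Columns were matched to libraries by name, and 0 columns belonged to other samples. No row lacked a gene name.

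Rows of the unfiltered table whose counts summed to 10 or more (18606 rows) were tested with DESeq2 1.42.0 in R 4.3.3, the test of the study's methods, with median-of-ratios size factors (0.867 to 1.12), unshrunken log2 fold changes, default filters and Benjamini-Hochberg adjustment over all rows. An adjusted p below 0.05 was the threshold, and 2556 rows had no adjusted p. The study's selection also asked for a 2-fold change, which was not applied here and which 0 of the called members reach. Normalized counts are counts divided by size factors. The precision of each value is set by its count, by the spread between libraries of a group and by n = 3. Within each group, pairs of libraries gave chi-square values of 16.8 to 43.4 per degree of freedom, so no library was a copy of another. Scripts were tested on simulated data. Alternatives were edgeR 4.0.16, limma 3.58.1 (voom), other size factors and filters, a replicate block and each library left out.

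The members, the lists and the tests were chosen with earlier results of these data known. Values in every library are given for the called members, those with the largest and smallest log2 fold changes, and Wars, Tars, Tarsl2 and Tars2. Lars2 and Kars, and genes of the lists, were given such values after they had been seen. Promoter windows were taken from RefSeq (GRCm38.p6) by gene ID, with Mars matched through a synonym. A few items are not reported here. Jchain and Adgre1 of the marker lists were not tested.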

Additional observations from a re-analysis of the deposited data

How the results depend on the processing

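The count of 11 called cytosolic and dual genes was also 11 with TMM factors, with total counts that left out the 10 most abundant rows, without the count filter, with at least 10 counts in at least 3 libraries, with the authors' filtered rows and with Cook's filter off, and 10 with independent filtering off. It was 0 with edgeR, 0 with limma-voom and 4 with total counts as size factors, and ran from 0 (without WT 1) to 12 (without DKO 1) with a library left out. The count of 0 mitochondrial genes held under every alternative. The fixed pathway lists held 11 genes called in either direction, among them the 6 interferon-inducible genes that fell, beside 2.9% of all rows. The count was 0 with edgeR, 0 with limma-voom and from 4 (without DKO 4) to 16 (without WT 4) with a library left out. The medians of 0.47 and 0.08 became 0.23 and -0.15 with total counts, which set the median of all rows to -0.233, so relative to that median they were 0.46 and 0.08. With a library left out they ran from 0.31 to 0.52 and from 0.01 to 0.12. With total counts the sign turned in 19 genes, none of them called: Fars2 (-0.22), Wars2 (-0.22), Iars2 (-0.17), Farsa (-0.17), Yars2 (-0.17), Mars2 (-0.16), Nars2 (-0.15), Aars2 (-0.14), Sars2 (-0.12), Cars2 (-0.12), Tarsl2 (-0.12), Ears2 (-0.11), Vars2 (-0.10), Dars (-0.097), Qars (-0.061), Rars2 (-0.058), Pars2 (-0.045), Farsb (-0.032), Hars (-0.028). With a library left out it turned in 9 uncalled genes, whose log2 fold changes then ran over Fars2 (-0.057 to 0.10), Farsa (-0.060 to 0.15), Hars2 (-0.14 to 0.033), Nars2 (-0.012 to 0.18), Sars2 (-0.098 to 0.25), Tars2 (-0.086 to 0.057), Wars (-0.22 to 0.055), Wars2 (-0.061 to 0.12), Yars2 (-0.0072 to 0.15). With all 6 libraries these 9 genes lay between -0.08 (Hars2) and 0.12 (Sars2).

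The labels number the libraries 1, 4 and 5 in both groups, but same-numbered libraries did not deviate together (correlations of -0.13, -0.02 and -0.26 over 11489 rows). No library correlated best with its own number. The highest correlations were 0.45 for WT 5 with DKO 1, 0.44 for WT 4 with DKO 5 and 0.27 for WT 1 with DKO 4. What these libraries share was not tested, and the block below follows the numbers of the labels. With the replicate number as a block, 12 of the 21 genes passed, the 11 with Lars (adjusted p = 0.0122, DESeq2), with medians of 0.46 and 0.08, 0 mitochondrial genes and 11 genes of the pathway lists. In that fit 343 of all 18606 rows were called in either direction. Depth limits most the least counted member, Pars2, with a mean of 44.3 normalized counts.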
